A study of Mus musculus with 17 samples.

Results

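Cholinergic spots were the 60 spots of each of 3 brain sections with the highest score for Lhx8, Slc5a7 and Slc10a4, together 180 of the 7807 spots that held at least 1000 counts. The score of a spot was the mean, over these 3 genes, of log1p of its counts per 10000 counts. The 7627 spots that remained are called the other spots: 2727 in posterior section 2, 2471 in anterior section 5 and 2429 in posterior section 6. A spot is a small area of a Visium slide whose barcoded probes capture RNA from the tissue above it, so 1 spot can hold several cells of different types. No region name or slide position was used for the spots, and 32 of the 180 held the marker genes of striatal projection neurons at a high level. They are therefore called by the genes that chose them and not by a brain region.

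The study examined the neurons of the anterior thalamic nuclei, a group of thalamic relay nuclei tied to memory and orientation, and the sections were taken at their posterior level (2 sections) and anterior level (1 section). All 3 sections carry the genotype label WT and come from flash-frozen brains of B6 mice, with no treatment named in the labels. They were 10 µm thick, stained for the neuronal protein NeuN and the DNA dye DAPI, and permeabilized for 24 min. Because the labels do not tie the sections to separate mice, the p-values speak only for these 3 sections, whose spread may be technical. The test estimates the spread of a gene with help from all other genes tested. A very small p-value therefore does not rest on the spread of that gene between 3 sections alone.

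Cholinergic neurons of the forebrain make acetylcholine from choline and acetyl-CoA, pack it into vesicles, and take the choline back up after the transmitter has been split in the synapse. Those of the basal forebrain project to the cortex, hippocampus and amygdala, depend on nerve growth factor, and are lost in Alzheimer's disease. Those of the striatum are interneurons that stay within it. Both kinds descend from progenitors of the ventral forebrain that use the LIM homeodomain factor Lhx8. The medial habenula, at the top of the thalamus, also holds cholinergic neurons.

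The 250 bases before the start that the RefSeq promoter table gives for 3 genes are shown because their products carry out the steps that define a cholinergic terminal: Chat makes acetylcholine, Slc18a3 (the vesicular acetylcholine transporter) loads it into vesicles, and Slc5a7 (the high-affinity choline transporter) returns the choline. Each is written 5′ to 3′ on the strand of its gene, from RefSeq on GRCm38.p6. Capitals mark the letters TAAT or ATTA, the core that homeodomain factors can bind, and GGGCGG or CCGCCC, the core of a GC box, with both strands searched. The Slc5a7 window takes in the first bases of that gene as annotated.
Chat, chr14:32465910-32466159, minus strand: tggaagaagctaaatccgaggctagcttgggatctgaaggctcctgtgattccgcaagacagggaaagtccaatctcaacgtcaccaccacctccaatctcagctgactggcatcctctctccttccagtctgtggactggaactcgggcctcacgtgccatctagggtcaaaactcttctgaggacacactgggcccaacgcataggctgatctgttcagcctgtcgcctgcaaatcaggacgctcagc
Slc18a3, chr14:32464851-32465100, minus strand: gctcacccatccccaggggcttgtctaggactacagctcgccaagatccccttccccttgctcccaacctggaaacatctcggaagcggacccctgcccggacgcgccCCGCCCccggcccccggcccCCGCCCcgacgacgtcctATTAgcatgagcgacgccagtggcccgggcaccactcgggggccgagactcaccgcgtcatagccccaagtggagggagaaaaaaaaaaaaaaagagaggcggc
Slc5a7, chr17:54299035-54299284, minus strand: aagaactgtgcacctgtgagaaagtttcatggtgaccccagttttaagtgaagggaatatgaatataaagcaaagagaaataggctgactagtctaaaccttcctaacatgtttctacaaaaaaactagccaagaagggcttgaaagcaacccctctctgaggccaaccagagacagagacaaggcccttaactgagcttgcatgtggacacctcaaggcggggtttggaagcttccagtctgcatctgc
The Slc18a3 window held 1 TAAT core and 2 GC boxes, and the windows of Chat and Slc5a7 held neither. The window of Slc10a4 (chr5:73006654-73006903, plus strand) held 2 TAAT cores and 4 GC boxes, some of which overlap. Of 32851 mouse promoter windows of the same length, 54.9% held a TAAT core and 32.7% a GC box, and a match or its absence describes only these letters. In the same annotation Slc18a3 (chr14:32462437-32464850) lies inside the Chat gene (chr14:32408203-32465909), so reads of both genes can fall on shared sequence, and how such reads were counted is not given in the sources used here.

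The 3 genes that chose the spots set the level of the members, and their values are given without a test. Slc5a7 reached 321, 331 and 281 CPM (counts per 1000000 counts) in the cholinergic spots of sections 2, 5 and 6, against 5.19, 4.09 and 5.56 CPM in the other spots. Slc10a4, a transporter-like protein of cholinergic and monoamine vesicles, reached 203, 177 and 215 CPM in the cholinergic spots and 7.90, 4.69 and 4.24 CPM in the other spots. Lhx8 reached 116, 97.6 and 115 CPM in the cholinergic spots and 4.01, 4.24 and 2.81 CPM in the other spots. All 3 genes had a count in 60 of the 180 cholinergic spots, 2 of them in 97 and 1 in 23. Among the other spots, 2 had a count of all 3 genes, 59 of 2 genes, 608 of 1 gene and 6958 of none. The score did not break off at the limit: the lowest member scores were 0.664, 0.529 and 0.577 in sections 2, 5 and 6, and the highest scores of the other spots were 0.657, 0.528 and 0.576. The median score of the members was 0.874, 0.747 and 0.794.

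Depth did not set the groups widely apart. Median total counts per spot were 9300, 5710 and 7023.5 in the cholinergic spots of sections 2, 5 and 6, against 9008, 5324 and 7229 in the other spots. The sums over the cholinergic spots held 594947, 338256 and 427471 counts, and those over the other spots held 25434526, 13445594 and 18153758 counts. The mitochondrial share was 13.03%, 9.43% and 8.999% in the cholinergic spots and 12.3%, 10.1% and 9.15% in the other spots, as medians over spots. Barcodes, which stand for positions on the slide, recur between sections (1252 in all 3), and cholinergic spots of different sections shared 1 of them.

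Each of the genes that chose the spots remained high when it was left out of the choice. In spots chosen on Slc5a7 and Slc10a4 only, Lhx8 had 73.0, 59.0 and 65.6 CPM in the chosen spots of sections 2, 5 and 6, against 5.03, 5.21 and 3.97 CPM in the spots not chosen. The chosen spots were higher in every section, by 3.80 ± 0.27 on the log2 scale (SE; edgeR quasi-likelihood test with section as a block, adjusted p = 2.01e-14), in a fit that called 2.88% of all genes tested higher. In spots chosen without Slc5a7, Slc5a7 had 202, 162 and 185 CPM in the chosen spots and 8.17, 8.89 and 8.30 CPM in the spots not chosen, a log2 difference of 4.45 ± 0.17 (SE; edgeR adjusted p = 1.4e-142, with 3.69% of genes called higher). In spots chosen without Slc10a4, Slc10a4 had 159, 95.3 and 147 CPM in the chosen spots and 9.07, 6.97 and 6.00 CPM in the spots not chosen, a log2 difference of 4.19 ± 0.19 (SE; edgeR adjusted p = 4.55e-104, with 3.32% of genes called higher). The choices without Lhx8, Slc5a7 or Slc10a4 shared 143, 102 and 127 of their 180 spots with the choice on all 3 genes.

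Against the other spots of the same sections, the cholinergic spots were higher in genes of acetylcholine synthesis and storage, in the neurotrophin receptor gene Ngfr and in transcription factors of the ventral forebrain, and lower in genes of cortical, thalamic and choroid plexus cells. The counts were summed per section over the 60 cholinergic spots and over the other spots, and the 6 sums were compared with edgeR's quasi-likelihood test with section as a block. Of 13611 genes tested, 543 were higher (3.99%) and 753 lower (5.53%) at an adjusted p under 0.05, and the median log2 fold change over all of them was -0.03. Without the section block 300 were higher and 440 lower. In spots that hold many cells, fewer cells of a type and less RNA per cell cannot be told apart.

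Of the 6 genes listed for acetylcholine synthesis, storage and breakdown, 5 were tested, 4 were higher and none lower, with a median log2 fold change of 2.07. Slc18a3 had 97.5, 73.9 and 110 CPM in the cholinergic spots of sections 2, 5 and 6, against 2.71, 4.91 and 4.08 CPM in the other spots. The groups did not overlap, and the log2 fold change was 4.66 ± 0.25 (SE; edgeR adjusted p = 1.23e-53). Chat had 3, 9 and 31 counts in the cholinergic spots, equal to 5.04, 26.6 and 72.5 CPM, against 9, 15 and 25 counts, or 0.354, 1.12 and 1.38 CPM, in the other spots. It was higher in the cholinergic spots of every section (log2 fold change 5.10 ± 0.46, SE; edgeR adjusted p = 2.59e-22), with the lowest and the highest level both in posterior sections. Chat was low in the other spots and passed the filter on low counts through the cholinergic spots. Its p-value is therefore not free of that choice. The exact Poisson 95% intervals of its level in the cholinergic spots were 1.04 to 14.7 CPM in section 2, 12.2 to 50.5 CPM in section 5 and 49.3 to 103 CPM in section 6, so that sections 2 and 6 stood apart beyond counting error.

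Ache, whose product splits acetylcholine, had 131, 237 and 260 CPM in the cholinergic spots and 36.4, 49.5 and 58.4 CPM in the other spots, a rise of 2.07 ± 0.12 on the log2 scale (SE; edgeR adjusted p = 6.52e-46). Both groups had their lowest value in section 2, and no value of the cholinergic spots fell into the range of the other spots. Prima1, which anchors that enzyme to membranes, had 10.1, 8.87 and 14.04 CPM in the cholinergic spots and 2.75, 2.75 and 2.64 CPM in the other spots (log2 fold change 2.01 ± 0.56, SE; edgeR adjusted p = 0.00618). Its call was lost without section 2 (adjusted p = 0.0656) and without section 6 (adjusted p = 0.186). Of 7 tested genes that supply choline or acetyl-CoA, 1 was higher and none lower. That gene was Acly, ATP citrate lyase, which makes acetyl-CoA in the cytosol: 639, 511 and 536 CPM in the cholinergic spots against 122, 114 and 121 CPM in the other spots (log2 fold change 2.23 ± 0.09, SE; edgeR adjusted p = 1.15e-77). The choline transporter gene Slc44a1 had 68.9, 97.6 and 77.2 CPM in the cholinergic spots and 97.2, 91.6 and 99.3 CPM in the other spots and did not pass (adjusted p = 0.237).

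**Figure D1:**
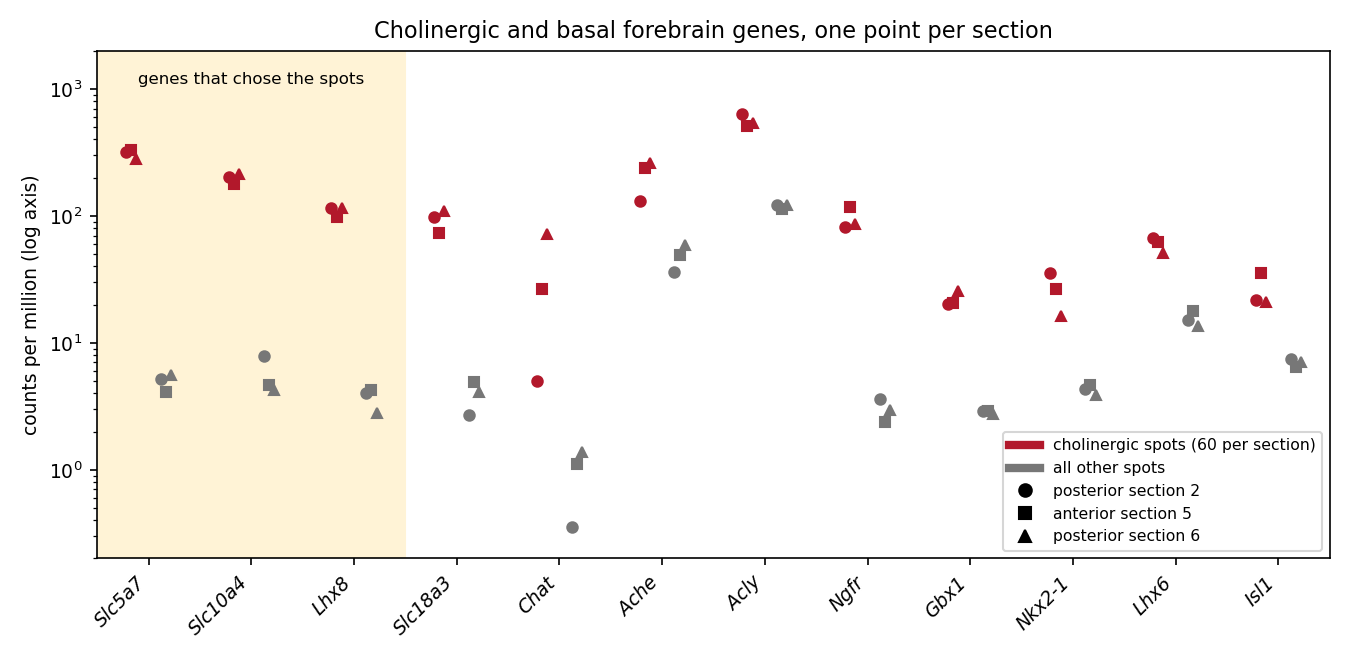
Level in CPM (log axis) of 12 genes in the cholinergic spots (red) and all other spots (grey), with 1 symbol per section and the 3 genes that chose the spots on a shaded ground. Apart from Chat, which had 5.04 CPM in section 2, each gene lay above 10 CPM in the cholinergic spots of all sections, and in all 12 the cholinergic spots lay above the other spots.

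Of 10 tested genes of neurotrophins and their receptors, 2 were higher and 2 lower. Ngfr, the low-affinity neurotrophin receptor p75, had 82.4, 118 and 86.6 CPM in the cholinergic spots of sections 2, 5 and 6, against 3.58, 2.38 and 2.97 CPM in the other spots (log2 fold change 4.92 ± 0.26, SE; edgeR adjusted p = 9.3e-54). Every section of the cholinergic spots lay above every section of the other spots. The neurotrophin gene Bdnf had 6.72, 17.7 and 4.68 CPM in the cholinergic spots and 22.3, 22.8 and 24.6 CPM in the other spots (log2 fold change -1.40 ± 0.37, SE; edgeR adjusted p = 0.00389). The sorting receptor gene Sort1 was also lower, at -0.42 ± 0.11 (SE; edgeR adjusted p = 0.00462). Both decreases missed the threshold in other fits: Bdnf without section 2 (adjusted p = 0.147) or section 6 (0.125), and Sort1 without section 6 (0.339). Neither was called with DESeq2, and without the section block 1 gene of the list was called lower.

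These genes were counted in some of the cholinergic spots and not in others. Slc18a3 had a count in 53.3%, 25% and 46.7% of the cholinergic spots of sections 2, 5 and 6, against 2.24%, 2.06% and 2.72% of the other spots. For Chat the shares were 5.00%, 13.3% and 33.3% of the cholinergic spots and 0.293%, 0.567% and 0.865% of the other spots. Section 5, with the lowest counts per spot, had the lowest share for Slc18a3 and Ngfr, and section 2, with the highest, had the lowest share for Chat. With every spot thinned to 1000 counts, Slc18a3 had a count in 15%, 6.67% and 6.67% of the cholinergic spots and in 0.293%, 0.324% and 0.494% of the other spots. At least 1 of the 3 genes Chat, Slc18a3 and Ngfr, which the choice of spots did not use, had a count in 110 of the 180 cholinergic spots and in 331 of the 7627 other spots. At least 2 of the 3 had a count in 53 cholinergic spots and 42 other spots, so spots outside the 180 also held these RNAs.

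**Figure D2:**
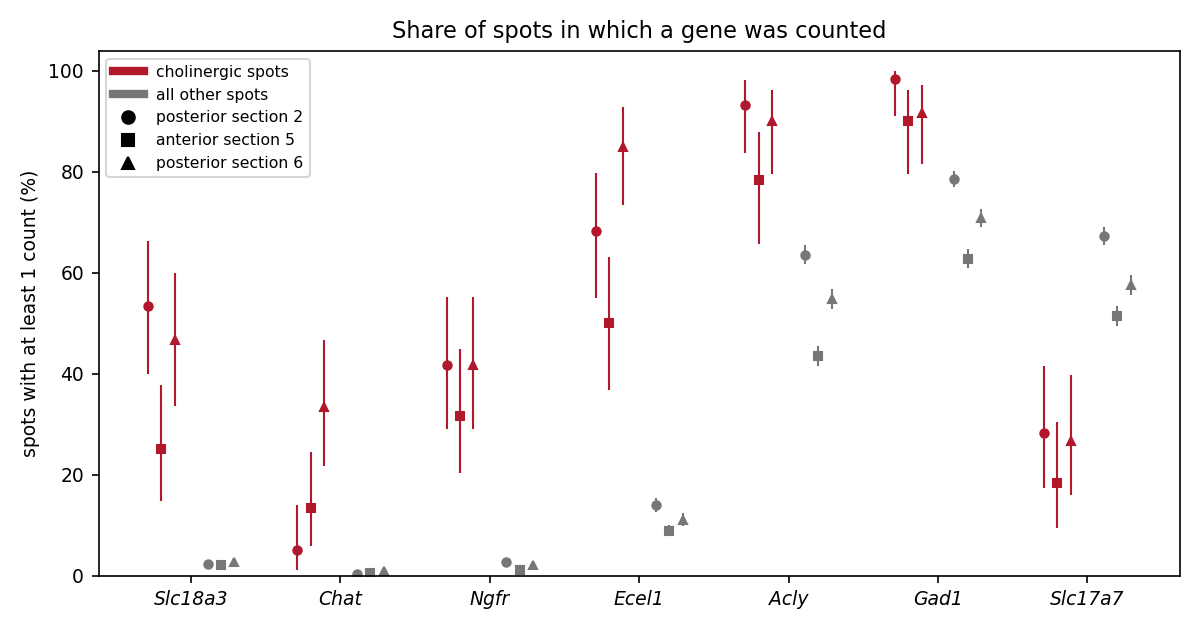
Share of spots (%) with at least 1 count of each of 7 genes, in the cholinergic spots (red) and all other spots (grey) of each section, with exact binomial 95% intervals that cover counting error only. Slc18a3, Chat and Ngfr were counted in under 3% of the other spots of any section, and Slc17a7 is the gene of the 7 with lower shares in the cholinergic spots.

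Of 16 transcription factors listed for the basal forebrain, all tested, 6 were higher and 1 lower, with a median log2 fold change of 0.43. The lower call was lost under RLE scaling, with DESeq2, without the section block and without each of the 3 sections. Gbx1, a homeobox gene, had 20.2, 20.7 and 25.7 CPM in the cholinergic spots of sections 2, 5 and 6, against 2.91, 2.90 and 2.75 CPM in the other spots (log2 fold change 2.93 ± 0.43, SE; edgeR adjusted p = 4.27e-09). Nkx2-1, which marks the medial ganglionic eminence and cells that descend from it, had 35.3, 26.6 and 16.4 CPM in the cholinergic spots and 4.32, 4.61 and 3.91 CPM in the other spots (log2 fold change 2.63 ± 0.38, SE; edgeR adjusted p = 1.25e-09). The values within each group lay close together for Gbx1 and were spread over a wider range for Nkx2-1, without overlap between groups for either gene. Lhx6, a LIM homeodomain gene of GABA neurons from the same origin, had 67.2, 62.1 and 51.5 CPM in the cholinergic spots and 15.1, 17.7 and 13.6 CPM in the other spots (log2 fold change 1.98 ± 0.22, SE; edgeR adjusted p = 1.38e-15). Isl1, a LIM homeodomain gene that works with Lhx8 in forebrain cholinergic neurons, had 21.9, 35.5 and 21.1 CPM in the cholinergic spots and 7.39, 6.47 and 7.05 CPM in the other spots (log2 fold change 1.82 ± 0.35, SE; edgeR adjusted p = 1.29e-05). Zic1, a zinc-finger gene of the septum and other midline structures, did not pass: 123, 65.0 and 86.6 CPM in the cholinergic spots against 83.9, 71.8 and 71.4 CPM in the other spots (adjusted p = 0.194). Its groups overlapped.

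Of 8 tested genes for peptides and peptide receptors known from forebrain cholinergic neurons, 3 were higher and 1 lower. Tacr1, the receptor of substance P, had 75.6, 32.5 and 51.5 CPM in the cholinergic spots of sections 2, 5 and 6, against 6.68, 5.28 and 5.40 CPM in the other spots (log2 fold change 3.23 ± 0.27, SE; edgeR adjusted p = 4.07e-25). Tacr3, the receptor of neurokinin B, had 26.9, 17.7 and 44.4 CPM in the cholinergic spots and 5.03, 3.64 and 3.36 CPM in the other spots (log2 fold change 2.86 ± 0.37, SE; edgeR adjusted p = 1e-11). Both tachykinin receptors had their lowest value of the cholinergic spots in anterior section 5. Gal, the peptide galanin, had 33.6, 41.4 and 39.8 CPM in the cholinergic spots and 10.7, 8.11 and 4.35 CPM in the other spots (log2 fold change 2.26 ± 0.30, SE; edgeR adjusted p = 3.54e-11). Sstr2, a somatostatin receptor, was the lower gene, with 6.72, 5.91 and 2.34 CPM in the cholinergic spots against 16.6, 15.6 and 17.2 CPM in the other spots (log2 fold change -1.69 ± 0.47, SE; edgeR adjusted p = 0.00655). It missed the threshold without section 2 (adjusted p = 0.0561) and without section 6 (0.134), and it was not called with DESeq2.

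The receptors of acetylcholine did not move together: of 6 tested, 1 was higher and 3 lower. Chrm2, the M2 receptor that also serves as an autoreceptor of cholinergic neurons, had 26.9, 32.5 and 49.1 CPM in the cholinergic spots of sections 2, 5 and 6, against 10.2, 12.9 and 13.2 CPM in the other spots (log2 fold change 1.57 ± 0.27, SE; edgeR adjusted p = 1.3e-06). Chrm1, the M1 receptor of many cortical and striatal neurons, had 26.9, 44.3 and 35.1 CPM in the cholinergic spots and 62.2, 71.4 and 74.5 CPM in the other spots (log2 fold change -1.02 ± 0.20, SE; edgeR adjusted p = 1.48e-05). Neither pair of groups overlapped. The M3 receptor gene Chrm3 (log2 fold change -1.01 ± 0.31, SE; edgeR adjusted p = 0.017) and the nicotinic subunit gene Chrna4 (-1.003 ± 0.30, SE; edgeR adjusted p = 0.0145) were also lower. Chrm3 missed the threshold when any of the 3 sections was left out, and Chrna4 when section 2 or section 5 was. With DESeq2, 1 gene of the list was called lower.

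All 5 vesicular transmitter transporters of the list passed, 3 higher and 2 lower. Slc32a1, the vesicular GABA transporter, had 333, 349 and 285 CPM in the cholinergic spots of sections 2, 5 and 6, against 164, 149 and 145 CPM in the other spots (log2 fold change 1.06 ± 0.10, SE; edgeR adjusted p = 3.82e-21). Slc17a8, the vesicular glutamate transporter VGLUT3 that striatal cholinergic interneurons are known to carry, had 75.6, 20.7 and 32.8 CPM in the cholinergic spots and 4.60, 3.57 and 4.46 CPM in the other spots (log2 fold change 3.40 ± 0.32, SE; edgeR adjusted p = 2.55e-21). Its level in the cholinergic spots of section 2 stood well above those of sections 5 and 6, and all 3 lay above the other spots. Slc18a2, the vesicular monoamine transporter, rested on few counts, with 10.1, 11.8 and 9.36 CPM in the cholinergic spots against 2.08, 1.12 and 1.10 CPM in the other spots (log2 fold change 2.75 ± 0.63, SE; edgeR adjusted p = 0.00046). Slc18a2 passed the filter on low counts through the cholinergic spots, so its p-value is not free of that choice. Slc17a7, the vesicular glutamate transporter VGLUT1 of cortical neurons, had 47.1, 56.2 and 53.8 CPM in the cholinergic spots and 525, 430 and 490 CPM in the other spots (log2 fold change -3.25 ± 0.14, SE; edgeR adjusted p = 7.45e-73). Slc17a6, the thalamic and hypothalamic form VGLUT2, had 35.3, 56.2 and 58.5 CPM in the cholinergic spots and 74.0, 69.2 and 91.8 CPM in the other spots (log2 fold change -0.72 ± 0.17, SE; edgeR adjusted p = 0.00111). That call was lost without section 2 (adjusted p = 0.164). Without the section block 1 gene of the list was called lower, and with DESeq2 also 1.

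Genes of large projection neurons were mostly higher, 8 of 13 tested against 1 lower, with a median log2 fold change of 0.37 and 5 higher without the section block. Sncg, gamma-synuclein, had 70.6, 145 and 84.2 CPM in the cholinergic spots of sections 2, 5 and 6, against 11.7, 13.02 and 13.7 CPM in the other spots (log2 fold change 2.88 ± 0.20, SE; edgeR adjusted p = 2.23e-36). Resp18, a protein of the secretory pathway in neuroendocrine cells, had 324, 328 and 353 CPM in the cholinergic spots and 203, 183 and 193 CPM in the other spots (log2 fold change 0.78 ± 0.10, SE; edgeR adjusted p = 1.72e-12). The cytoskeletal gene Tubb3 (0.61 ± 0.09) and the ubiquitin hydrolase gene Uchl1 (0.44 ± 0.08) rose by less on the log2 scale (SE; edgeR adjusted p = 1.81e-09 for Tubb3 and 3.82e-06 for Uchl1). Outside the lists, Ecel1, a neuronal membrane peptidase, was among the 12 greatest increases, with 185, 192 and 356 CPM in the cholinergic spots against 21.7, 21.5 and 18.8 CPM in the other spots (log2 fold change 3.52 ± 0.14, SE; edgeR adjusted p = 1.91e-84). Section 6 stood above the other sections in the cholinergic spots, and the groups did not overlap.

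Ion channels of fast-firing and pacemaking neurons showed no common direction: of 18 tested, 1 was higher and 4 lower. Hcn2, a channel of the pacemaker current, had 143, 231 and 213 CPM in the cholinergic spots of sections 2, 5 and 6, against 89.8, 134 and 132 CPM in the other spots (log2 fold change 0.70 ± 0.11, SE; edgeR adjusted p = 9.7e-08). Both groups were lowest in section 2. Cacna1g, a T-type calcium channel that thalamic relay neurons use for burst firing, had 6.72, 32.5 and 28.1 CPM in the cholinergic spots and 38.9, 49.5 and 48.5 CPM in the other spots (log2 fold change -1.17 ± 0.25, SE; edgeR adjusted p = 0.000165). Without section 2, where it was lowest, it missed the threshold (adjusted p = 0.163).

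Immediate early genes, which neurons switch on after activity, were lower: 9 of 11 tested fell and none rose, with a median log2 fold change of -1.48 beside -0.03 over all genes. Arc had 48.7, 56.2 and 30.4 CPM in the cholinergic spots of sections 2, 5 and 6, against 116, 201 and 189 CPM in the other spots (log2 fold change -1.85 ± 0.16, SE; edgeR adjusted p = 5.87e-24). Egr1 had 131, 91.6 and 74.9 CPM in the cholinergic spots and 258, 280 and 262 CPM in the other spots (log2 fold change -1.39 ± 0.13, SE; edgeR adjusted p = 1.78e-22). Fos (-1.48 ± 0.22), Junb (-1.34 ± 0.17) and Nr4a1 (-1.55 ± 0.18) fell by similar amounts on the log2 scale, and no value of these 5 genes in the cholinergic spots lay above its lowest value in the other spots. Npas4 did not pass, with 5.04, 14.8 and 16.4 CPM in the cholinergic spots against 14.4, 21.0 and 22.0 CPM in the other spots (adjusted p = 0.224). Markers of cortical and amygdalar neurons were low in the same spots (9 of 10 lower, summed level 222, 260 and 208 CPM in the cholinergic spots against 1200, 1084 and 1165 CPM in the other spots), and their part in this result was not tested.

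Markers of other cells were read as lists, to show what else the spots held. Of 8 genes of GABA neurons, 4 were higher and 3 lower. Gad1, which makes GABA, had 582, 659 and 466 CPM in the cholinergic spots of sections 2, 5 and 6, against 323, 325 and 341 CPM in the other spots (log2 fold change 0.76 ± 0.09, SE; edgeR adjusted p = 2.56e-14). Gad2, the other such enzyme, rose with it (1.01 ± 0.09). The lower genes were markers of interneuron classes: Vip had 1.68, 5.91 and 2.34 CPM in the cholinergic spots and 31.2, 29.5 and 30.4 CPM in the other spots (log2 fold change -3.38 ± 0.47, SE; edgeR adjusted p = 3.4e-10). Npy (-1.28 ± 0.15) and Pvalb (-0.92 ± 0.12) were lower as well. Of 9 pallidal and reticular markers 5 were higher and 1 lower, but that list shares Lhx6, Nkx2-1 and Gbx1 with the transcription factors above.

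Cortical and amygdalar glutamate markers were lower in 9 of 10 genes tested, with a median log2 fold change of -2.50, and none rose. Neurod6 had 3.36, 2.96 and 4.68 CPM in the cholinergic spots of sections 2, 5 and 6, against 36.4, 31.9 and 49.2 CPM in the other spots (log2 fold change -3.42 ± 0.42, SE; edgeR adjusted p = 4.1e-13). Thalamic markers were lower in 6 of 10 and higher in none. Shox2, a homeobox gene of thalamic neurons, had no count in the cholinergic spots of any section and 19.7, 27.1 and 27.4 CPM in the other spots, at least 10.8-fold lower with the floor set at 3 counts over the group. All 5 choroid plexus markers were lower, led in level by Ttr, the transthyretin that this tissue secretes, with 343, 257 and 147 CPM in the cholinergic spots against 6091, 4523 and 4919 CPM in the other spots (log2 fold change -4.41 ± 0.10, SE; edgeR adjusted p = 3.14e-147). Ependymal markers were lower in 3 of 4, and of 5 meningeal markers 1, Igf2, was lower (log2 fold change -1.85 ± 0.21, SE; edgeR adjusted p = 3.22e-15).

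Few glial markers were called, although list levels differed. The astrocyte list summed to 1514, 1670 and 1282 CPM in the cholinergic spots of sections 2, 5 and 6, against 2030, 2226 and 1780 CPM in the other spots. The median oligodendrocyte level of single spots was 61.6, 74.2 and 62.9 counts per 10000 in the cholinergic spots, against 45.6, 52.3 and 52.5 in the other spots. Summed over spots, that list had 7216, 8916 and 7811 CPM against 8288, 8817 and 8724 CPM. Of 8 oligodendrocyte markers 1 was lower and none higher, and none of 6 microglial and 6 vascular markers passed in either direction. Of 6 astrocyte markers 2 were lower; Slc1a2, the glial glutamate transporter, had 946, 982 and 702 CPM in the cholinergic spots and 1388, 1496 and 1161 CPM in the other spots (log2 fold change -0.64 ± 0.08, SE; edgeR adjusted p = 9.48e-12). Of 5 tested markers of oligodendrocyte precursors 1 was higher: Gpr17, with 45.4, 35.5 and 58.5 CPM in the cholinergic spots against 26.4, 33.1 and 32.5 CPM in the other spots (log2 fold change 0.63 ± 0.21, SE; edgeR adjusted p = 0.033), a call lost without section 2 (adjusted p = 0.359) and without section 6 (0.348). It was also lost without the section block and with DESeq2. Markers of the medial habenula, the other cholinergic structure near the thalamus, were not higher: of 10 listed 5 were tested, of which none rose and Nwd2 fell. Pou4f1, Gpr151 and Syt15 of that list had no count in any cholinergic spot. Its summed level was 62.2, 71.0 and 63.2 CPM in the cholinergic spots and 68.1, 75.4 and 93.7 CPM in the other spots. Of 3 tested monoamine markers Th, which makes the precursor of dopamine, was higher, with 37.0, 17.7 and 32.8 CPM in the cholinergic spots and 5.19, 4.69 and 5.29 CPM in the other spots (log2 fold change 2.57 ± 0.35, SE; edgeR adjusted p = 1.36e-10).

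Hypothalamic markers went both ways, with 3 of 10 tested higher and 3 lower. Oxt, the peptide oxytocin, had 11.8, 38.4 and 72.5 CPM in the cholinergic spots of sections 2, 5 and 6, against 50.4, 418 and 896 CPM in the other spots (log2 fold change -3.42 ± 0.16, SE; edgeR adjusted p = 3.28e-63). Its level differed widely between sections in both groups, and the lowest other-spot value lay inside the range of the cholinergic spots. Hap1, a huntingtin-associated protein rich in the hypothalamus, was higher (log2 fold change 0.60 ± 0.12, SE; edgeR adjusted p = 2.63e-05), with a call that was lost without section 6 (adjusted p = 0.189). Cartpt, a peptide precursor, was higher as well (1.02 ± 0.22, SE; edgeR adjusted p = 9.69e-05), with a call that was lost without section 2 (adjusted p = 0.535). Without the section block 1 gene of this list was called higher, and with DESeq2 2 were.

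**Figure D3:**
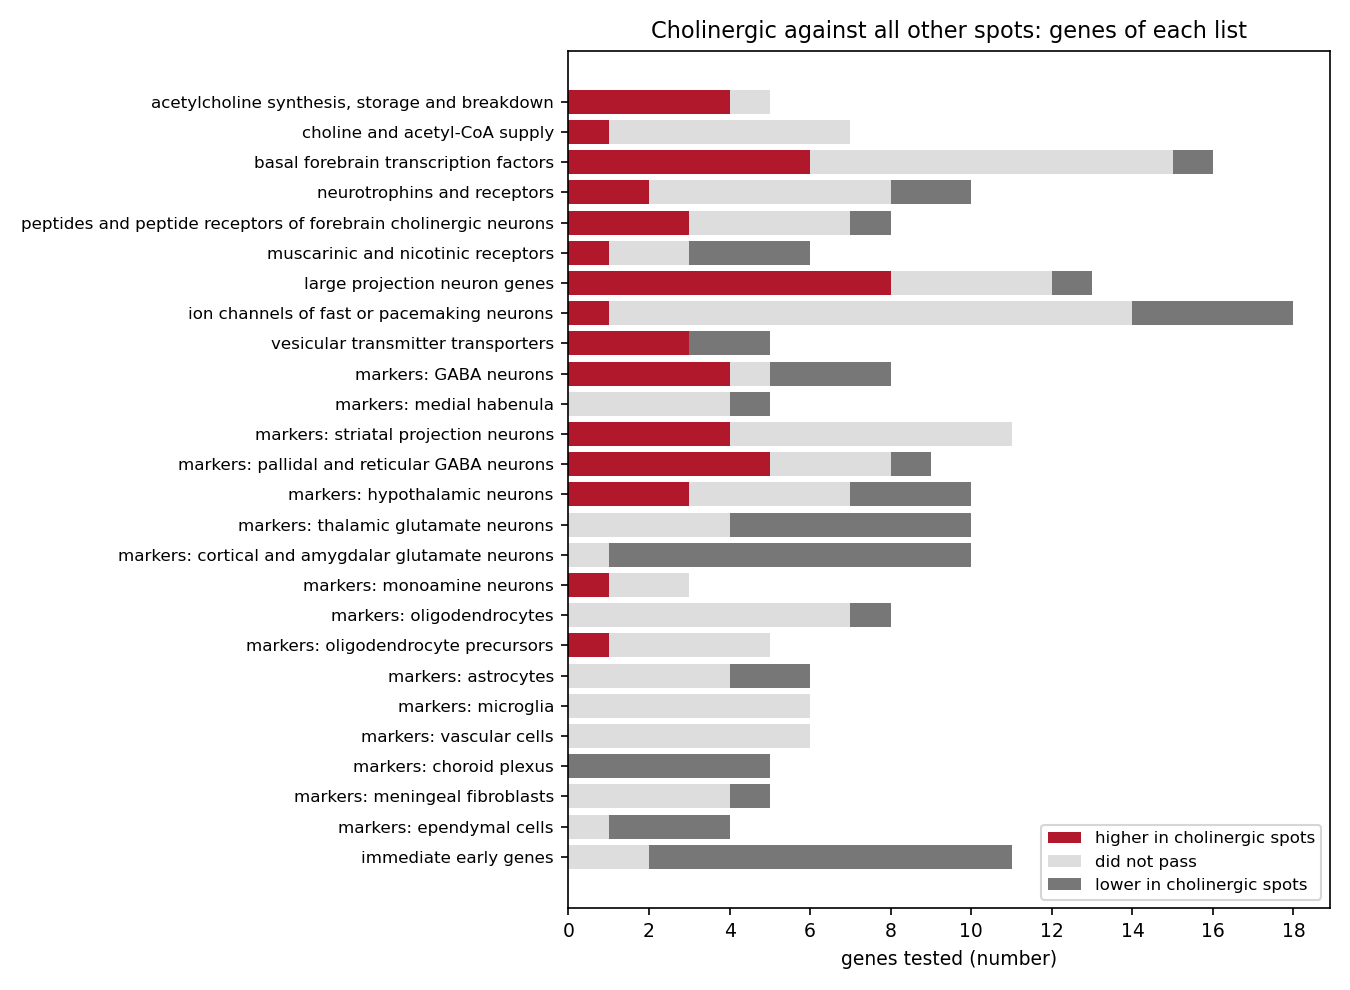
Number of tested genes of each list that were higher (red), did not pass (light grey) or lower (dark grey) in the cholinergic spots against all other spots, at an edgeR adjusted p under 0.05. The lists with 5 or more tested genes and a majority higher are acetylcholine, large projection neuron, vesicular transporter and pallidal genes, and those with a majority lower include the cortical, thalamic, choroid plexus and immediate early genes.

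Striatal markers were spread unevenly over the cholinergic spots. Of 11 tested in the sums, 4 were higher and none lower, but none was called without posterior section 2, without the section block or with DESeq2, and 7 were higher without section 5. Penk, the enkephalin precursor, had 861, 310 and 496 CPM in the cholinergic spots of sections 2, 5 and 6, against 381, 377 and 398 CPM in the other spots, so that section 5 of the cholinergic spots lay below all 3 values of the other spots and sections 2 and 6 lay above them. Rgs9 and Adora2a were among the higher genes of the list, and for both of them section 2 had the highest level in the cholinergic spots. Summed over the list, the level was 3104, 1330 and 1598 CPM in the cholinergic spots and 1633, 1661 and 1557 CPM in the other spots. In single cholinergic spots of section 2 the summed level of the 12 striatal markers fell into a low and a high part. No spot of that section lay between 25.5 and 61.2 counts per 10000. Sections 5 and 6 had no such gap, with spots at 26.5, 36.2, 39.3 and 44.2 in section 5 and at 34.7 and 44.7 in section 6. The median of the summed level was 6.77, 3.57 and 3.99 counts per 10000 in the cholinergic spots of sections 2, 5 and 6, and its highest value was 122, 87.6 and 114. At least 50 counts per 10000, a limit set after the values were seen, were reached by 18, 6 and 8 of the 60 cholinergic spots of sections 2, 5 and 6. That made 32 of 180 cholinergic spots (17.8%), against 903 of 7627 other spots (11.8%). By section the share was 30%, 10% and 13.3% in the cholinergic spots of sections 2, 5 and 6. In the other spots it was 12.2%, 12.1% and 11.2%. Between 40 and 60 counts per 10000 lay 6 cholinergic spots, none of them in section 2.

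The 32 cholinergic spots rich in striatal markers and the other 148 differed in several genes that were called higher against the other spots. The values that follow are summed over the 3 sections, have no test, and carry exact Poisson 95% intervals for counting error only. Ngfr had no count in any of the 32 spots, which hold 293099 counts (interval 0 to 12.6 CPM), and 118 CPM (98.3 to 141) in the 148, where 69 spots had a count. It was at 0 in the striatal-rich spots of each section and at 122, 132 and 101 CPM in the rest of the cholinergic spots of sections 2, 5 and 6. In section 5 the interval of that 0 (0 to 102 CPM) overlapped the interval of the rest (94.6 to 180 CPM). Gal had no count in the 32 spots and 47.8 CPM (35.6 to 62.8) in the 148. In sections 5 and 6 the intervals of its 0 (0 to 102 and 0 to 59.5 CPM) took in the 46.4 and 46.5 CPM of the rest. Lhx6 was low in the 32 spots too, with 6.82 CPM (0.826 to 24.6) in the 32 spots against 75.9 CPM (60.3 to 94.3) in the 148. Gbx1 had 3.41 CPM (0.0864 to 19.01) in the 32 spots and 27.2 CPM (18.2 to 39.0) in the 148, intervals that overlapped. Sncg had 13.6 CPM (3.72 to 34.9) in the 32 spots and 115 CPM (95.8 to 137) in the 148, and Resp18 had 106 CPM (71.9 to 150) and 397 CPM (360 to 437) in the same order.

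Other genes ran the opposite way or did not separate the spots. Slc17a8 had 147 CPM (106 to 198) in the 32 striatal-rich spots and 21.5 CPM (13.7 to 32.3) in the 148, with a count in 20 of the 32 and 10 of the 148. Tacr1 had 126 CPM (88.9 to 174) in the 32 spots and 38.4 CPM (27.6 to 52.1) in the 148. Of its 37 counts in the 32 spots, 30 came from section 2, and the 6 striatal-rich spots of section 5 held none (0 to 102 CPM), against 36.4 CPM (18.2 to 65.2) in the rest of that section's cholinergic spots. In section 2, where Slc17a8 was highest, 34 of its 45 counts in cholinergic spots came from spots rich in striatal markers. For Slc18a3 and Chat the intervals overlapped. Slc18a3 had 68.2 CPM (41.7 to 105) in the 32 spots and 103 CPM (84.7 to 124) in the 148. Chat had 44.4 CPM (23.6 to 75.8) in the 32 spots and 28.1 CPM (18.96 to 40.1) in the 148. By section, Chat had 5.13, 82.7 and 145 CPM in the striatal-rich spots of sections 2, 5 and 6, from 1, 3 and 9 counts, against 4.998, 19.9 and 60.2 CPM in the rest of the cholinergic spots. Its values were higher in the striatal-rich spots of sections 5 and 6, with intervals that overlapped within each section, and section 2, where it was low in both, gave 194803 of the 293099 counts of the 32 spots. The spots in question were chosen on Slc5a7, Slc10a4 and Lhx8, which are given for description: Slc5a7 had 399 CPM (330 to 478) in the 32 spots and 287 CPM (255 to 321) in the 148, intervals that did not overlap, and Lhx8 81.9 CPM and 119 CPM in the same order.

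**Figure D4:**
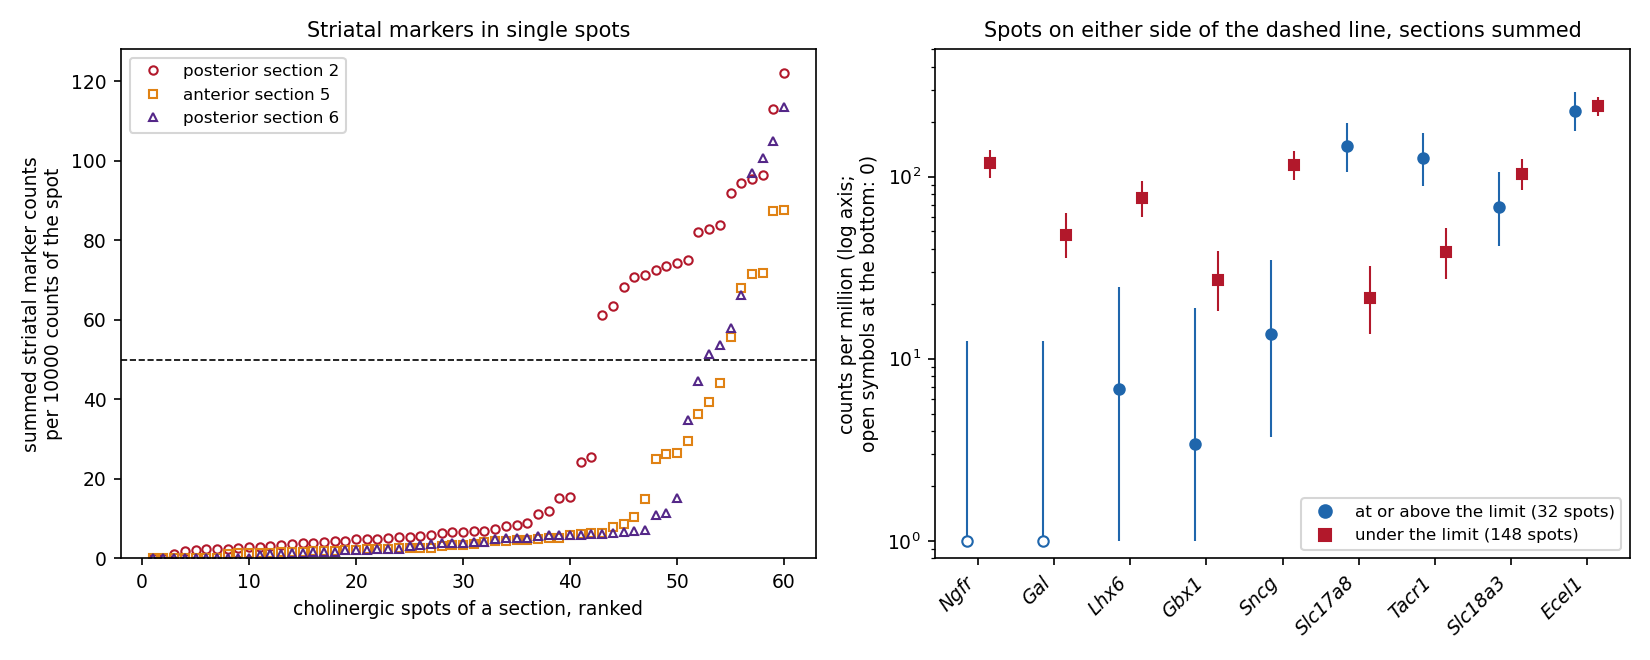
Left, summed counts of 12 striatal markers per 10000 counts in each of the 60 cholinergic spots of a section, ranked, with a dashed line at 50. Right, level in CPM (log axis) of 9 genes in the 32 spots at or above that line and the 148 under it, with exact Poisson 95% intervals (lower ends below 1 CPM are drawn at 1): Ngfr and Gal were at 0 above the line, and Slc17a8 and Tacr1, which had no count above the line in section 5, were higher there.

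With the 32 spots left out, an alternative chosen after the values were seen, the striatal genes Penk, Rgs9, Adora2a and Ppp1r1b took the opposite sign against the other spots. Penk then had a log2 fold change of -1.30 ± 0.11 and Ppp1r1b of -1.75 ± 0.12 (SE). The total of calls moved to 1752, of which 1168 were among the 1296 calls made with all 180 spots.

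Members with and without an Lhx8 count were compared with each other, since Lhx8 had a count in 43, 26 and 34 of the 60 cholinergic spots of sections 2, 5 and 6. Of 3765 genes tested between the sums, 4 were higher (0.106%) and 5 lower (0.133%) in the spots with an Lhx8 count, by edgeR with section as a block. Npy, a peptide of interneurons, had 21.0, 6.59 and 36.5 CPM in the spots with an Lhx8 count and 77.7, 91.2 and 171 CPM in those without (log2 fold change -2.25 ± 0.37, SE; edgeR adjusted p = 3.05e-06). Its groups did not overlap. Npy was low in the spots with an Lhx8 count and passed the filter on low counts through those without. Its p-value is therefore not free of that choice. Sst and Penk were also called lower, but their values overlapped: Penk had 601, 257 and 491 CPM with an Lhx8 count and 1524, 354 and 503 CPM without. A member without an Lhx8 count entered through the other rule genes, and Slc5a7 had 292, 296 and 247 CPM in the spots with an Lhx8 count and 394, 359 and 326 CPM in those without, so the groups also differ in how they were chosen. The 4 higher genes were the haemoglobin genes Hba-a1, Hba-a2 and Hbb-bs and the unnamed transcript Gm42418. The Npy call was lost without section 5 (adjusted p = 0.186), where no gene was called lower, and without section 2 (0.537). Without section 2 no gene was called (142 had an unadjusted p under 0.05), and DESeq2 called none (9 with an unadjusted p under 0.05). The counts of unadjusted p do not leave out the genes that chose the spots, Lhx8 among them.

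The cholinergic spots were next set beside 60 spots per section chosen on the striatal genes Drd1, Drd2 and Adora2a, outside the cholinergic spots. The cholinergic spots were higher in Ngfr, Zic1, Lhx6 and Resp18, and all 9 striatal markers that had not chosen the spots were lower in them. Of 7223 genes tested, 999 were higher (13.8%) and 1023 lower (14.2%) by edgeR with section as a block. Of the basal forebrain transcription factors 6 were tested, 3 higher and 3 lower, with a median log2 fold change of 0.15. Zic1, which did not pass against all other spots, had 123, 65.0 and 86.6 CPM in the cholinergic spots of sections 2, 5 and 6, against 11.3, 8.90 and 8.87 CPM in the striatal-rule spots (log2 fold change 3.17 ± 0.32, SE; edgeR adjusted p = 8.12e-11). Resp18 had 324, 328 and 353 CPM in the cholinergic spots and 26.4, 32.6 and 44.3 CPM in the striatal-rule spots (log2 fold change 3.23 ± 0.18, SE; edgeR adjusted p = 2.3e-18). Neither gene's groups overlapped. Kcnc2, a potassium channel of fast-firing neurons, had 79.0, 121 and 93.6 CPM in the cholinergic spots and 7.54, 11.9 and 13.3 CPM in the striatal-rule spots (log2 fold change 3.07 ± 0.32, SE; edgeR adjusted p = 1.25e-10). Ngfr had 82.4, 118 and 86.6 CPM in the cholinergic spots and 0, 0 and 2.22 CPM in the striatal-rule spots (edgeR adjusted p = 2.65e-13). Ngfr, Zic1 and Kcnc2 were low in the striatal-rule spots and passed the filter on low counts through the cholinergic spots. Their p-values are therefore not free of that choice.

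Among the genes shared with striatal cholinergic interneurons, Slc18a3 had 97.5, 73.9 and 110 CPM in the cholinergic spots and 3.77, 11.9 and 6.65 CPM in the striatal-rule spots (log2 fold change 3.69 ± 0.36, SE; edgeR adjusted p = 2.55e-11). Slc18a3, too, passed the filter on low counts through the cholinergic spots. Ache (2.39 ± 0.20), Acly (2.34 ± 0.14) and Chrm2 (3.39 ± 0.59) were higher too on the log2 scale. Chrm2, like Slc18a3, passed the filter on low counts through the cholinergic spots. Markers of other regions were higher beside these genes, 6 of 7 tested hypothalamic markers and 3 of 4 tested thalamic markers, with none lower. Markers low in the striatal-rule spots were tested only if high in the cholinergic spots, which favours higher calls in these lists. Calb2, the gene of calretinin and one of the thalamic markers, had a log2 fold change of 4.60 ± 0.39 (SE; edgeR adjusted p = 5.44e-13). Ppp1r1b, the phosphoprotein DARPP-32 of striatal projection neurons, had 602, 325 and 388 CPM in the cholinergic spots and 1992, 2419 and 2834 CPM in the striatal-rule spots (log2 fold change -2.50 ± 0.14, SE; edgeR adjusted p = 7.66e-19). Its level in the cholinergic spots was highest in section 2, which held 18 of the 32 spots rich in striatal markers. Gad1 did not pass, with 582, 659 and 466 CPM in the cholinergic spots and 460, 421 and 477 CPM in the striatal-rule spots (adjusted p = 0.116).

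Against 60 spots per section chosen on Baiap3, Magel2 and Hap1, genes rich in the hypothalamus, the cholinergic spots were higher in oligodendrocyte and striatal markers and in Slc18a3 and Ngfr, and lower in hypothalamic markers. Of 7215 genes tested, 655 were higher (9.08%) and 531 lower (7.36%) by edgeR with section as a block. All 7 striatal markers tested were higher, and 5 others were not tested. The filter on low counts keeps a gene that is high on either side alone. A striatal marker low in the hypothalamic-rule spots was thus tested only if high in the cholinergic spots, which favours higher calls. All 8 oligodendrocyte markers were higher, a list of which none rose against all other spots. Mbp, myelin basic protein, had 3027, 3116 and 2730 CPM in the cholinergic spots of sections 2, 5 and 6, against 1639, 1197 and 1098 CPM in the hypothalamic-rule spots (log2 fold change 1.20 ± 0.10, SE; edgeR adjusted p = 4.73e-15). Of 13 tested genes of large projection neurons 8 were higher and 2 lower, and 2 were higher with DESeq2. Among them the neurofilament gene Nefm had 407, 452 and 297 CPM in the cholinergic spots and 109, 123 and 96.6 CPM in the hypothalamic-rule spots (log2 fold change 1.82 ± 0.15, SE; edgeR adjusted p = 1.19e-15). Groups did not overlap for Mbp or Nefm.

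In the other direction, 6 of 7 tested hypothalamic markers were lower and none higher. The same filter admits a marker that is high in the hypothalamic-rule spots alone, which favours lower calls in this list. Trh, thyrotropin-releasing hormone, had 6.72, 5.91 and 16.4 CPM in the cholinergic spots and 263, 262 and 132 CPM in the hypothalamic-rule spots (log2 fold change -4.47 ± 0.28, SE; edgeR adjusted p = 2.52e-20). Otp, a homeobox gene of neuroendocrine neurons, had 1.68, 5.91 and 14.04 CPM in the cholinergic spots and 87.1, 151 and 89.6 CPM in the hypothalamic-rule spots (log2 fold change -3.89 ± 0.37, SE; edgeR adjusted p = 8.02e-13). Otp, outside that list, passed the filter through the hypothalamic-rule spots, so its p-value is not free of that choice. Resp18, higher in the cholinergic spots than in the other spots or the striatal-rule spots, was lower here, with 324, 328 and 353 CPM in the cholinergic spots and 925, 908 and 792 CPM in the hypothalamic-rule spots (log2 fold change -1.37 ± 0.11, SE; edgeR adjusted p = 6.02e-15). Zic1 was lower as well (-1.01 ± 0.17, SE; edgeR adjusted p = 5.4e-06). Gal did not pass, with 33.6, 41.4 and 39.8 CPM in the cholinergic spots and 87.1, 67.7 and 25.9 CPM in the hypothalamic-rule spots (adjusted p = 0.104), and its groups overlapped. The comparisons with the other, striatal-rule and hypothalamic-rule spots share the sums of the cholinergic spots, so their values stand side by side and are not independent of each other.

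**Figure D5:**
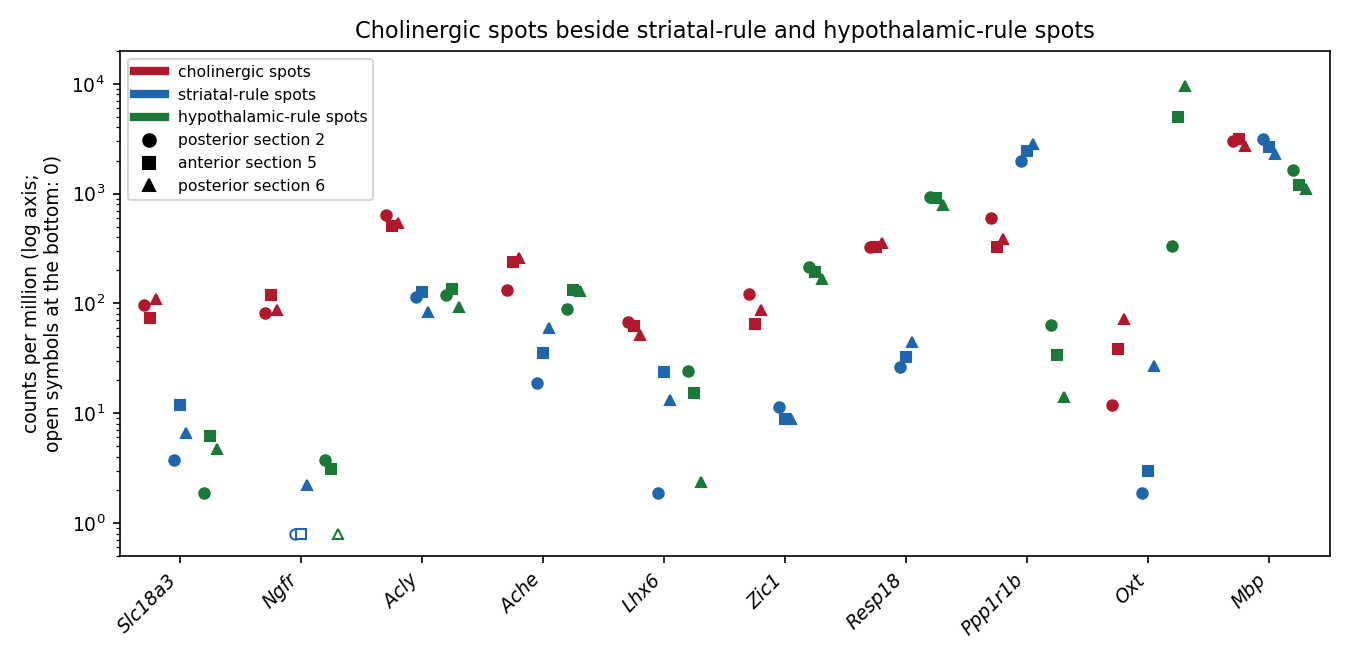
Level in CPM (log axis) of 10 genes in the cholinergic (red), striatal-rule (blue) and hypothalamic-rule spots (green), with 1 symbol per section and open symbols for 0. Slc18a3, Ngfr and Acly were highest in the cholinergic spots of every section, and Zic1 and Resp18 in the cholinergic spots lay above the striatal-rule and below the hypothalamic-rule spots.

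The anterior section has no second sample, so the levels are given with exact Poisson 95% intervals and no test. Of 234 listed genes, 2 had an interval in the cholinergic spots of anterior section 5 above those of both posterior sections, and 1 had an interval below both. Among the other spots the same count was 25 above and 12 below. In the anterior section their sum held 13445594 counts against 338256 in the cholinergic spots. Their intervals were therefore narrower, and the numbers of genes set apart are not comparable between the groups. Penk had 310 CPM (254 to 376) in the anterior section, against 861 CPM (788 to 938) in section 2 and 496 CPM (431 to 567) in section 6. The order of Penk follows that of the spots rich in striatal markers, 6 of 60 in the anterior section and 18 and 8 of 60 in the posterior ones, and their part in it was not tested. For Slc18a3 the interval of the anterior section (47.8 to 109 CPM) overlapped those of section 2 (74.0 to 126 CPM) and section 6 (80.8 to 146 CPM).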

How the data were processed

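Gene counts per Visium spot of 3 brain sections were used as the authors deposited them, as whole numbers and not normalized. The section of each spot was taken from the deposited metadata, a name column of unit other. Space Ranger and Seurat and the builds NCBIM37 and mm10 are listed in the submitters' processing notes, without their roles. The single cells of the series were not used here. Spots under 1000 counts were left out (20 of 7827), and every choice of spots was made within a section.

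Counts were summed per section and spot group and compared with edgeR 4.0.16 in R 4.3.3: TMM scaling, filterByExpr, quasi-likelihood F test, section as a block, Benjamini-Hochberg adjustment over all genes tested. A gene was called at an adjusted p under 0.05, and its SE is the absolute log2 fold change divided by the square root of F. The block comes from the design, since both sums of a pair are of 1 section; the deviations of the paired sums correlated at 0.192, 0.0662 and 0.0599. The genes that chose a group were not tested in it. Named genes are the 12 greatest changes per direction (at least 1 on the log2 scale, at least 20 CPM, 1 direction in all sections), up to 4 genes per list by adjusted p and a fixed set. The members and the 27 lists were chosen with earlier results of these data known. Intervals are exact at 95% and cover counting error only. Sequences and positions are RefSeq's on GRCm38.p6, and 177 of 179 named genes had a position. Some genes are not reported here. The procedure was tested on simulated data. Alternatives were no block, RLE scaling, DESeq2 1.42.0, no filter, each section left out, and other choices of spots.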

Additional observations from a re-analysis of the deposited data

How the results depend on the processing

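For the cholinergic against all other spots, the 543 genes higher and 753 lower became 300 and 440 without the section block (no replicate block), 261 and 296 with DESeq2, 281 and 447 with 30 spots per section, and 190 and 346 when spots were chosen and tested on separate parts of the counts. With 120 spots per section 890 were higher. Leaving out a section (without replicate 2, 5 or 6) gave 317 to 383 higher and 509 to 547 lower. Every call that these settings shared with the 1296 kept its direction, apart from 7 of 1168 without the spots rich in striatal markers. Between members with and without an Lhx8 count, the 4 higher and 5 lower genes became 0 and 1 without the block, 0 and 0 with DESeq2, and 0 to 4 and 0 to 12 with a section left out. Against striatal-rule spots, 999 higher and 1023 lower became 288 and 425 with DESeq2, and 719 to 802 and 865 to 956 with a section left out. Against hypothalamic-rule spots, 655 higher and 531 lower became 395 and 291 without the block, 163 and 113 with DESeq2, and 442 to 517 and 327 to 439 with a section left out. The cause was not tested, beyond the fewer sections or spots where some were left out. The genes left out of the choice of spots held under each setting run, at log2 fold changes of 3.68 to 3.93 for Lhx8, 4.33 to 4.56 for Slc5a7 and 4.0005 to 4.30 for Slc10a4 with a section left out. Of 1778 values of the 140 gene results in the text, 1625 kept direction and call, 134 missed the threshold, 8 passed it anew and 11 changed sign. Without the 32 spots rich in striatal markers, Penk took a log2 fold change of -1.30, Rgs9 -1.61, Adora2a -1.72 and Ppp1r1b -1.75. Ppp1r1b was at -0.32 to 0.28 with a section left out, the lowest without section 2, at -0.10 against other spots of the same depth and -0.15 in spots chosen without Slc5a7. Tac2 was at -0.13 to 0.30 with a section left out, -0.71 with 30 spots, -0.22 without Lhx8 in the choice and -0.00053 without Slc5a7. Low counts limit Chat, with 3 counts in the cholinergic spots of section 2.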

Other observations

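Among the greatest decreases of the cholinergic spots against the other spots were genes that no list held. Slc30a3, the zinc transporter of glutamate vesicles, had 1.68, 11.8 and 2.34 CPM in the cholinergic spots of sections 2, 5 and 6 and 68.8, 60.2 and 60.4 CPM in the other spots (log2 fold change -3.86 ± 0.35, SE; edgeR adjusted p = 3.3e-22). C1ql3, a secreted synaptic protein, and Neurod2, a transcription factor of cortical neurons, were lower by the same test, at log2 fold changes of -4.23 ± 0.57 and -3.53 ± 0.37. None of these genes had a value in the cholinergic spots within the range of the other spots. Trbc2, named for a T cell receptor constant region, had 0, 2.96 and 0 CPM in the cholinergic spots and 21.3, 20.8 and 22.0 CPM in the other spots.

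Beside the striatal-rule spots, the retinoid receptor genes Rarb (log2 fold change -2.54 ± 0.29) and Rxrg (-2.48 ± 0.22) were lower in the cholinergic spots. Rxrg had 43.7, 20.7 and 23.4 CPM in the cholinergic spots of sections 2, 5 and 6 and 177, 190 and 137 CPM in the striatal-rule spots. Beside the hypothalamic-rule spots, Dlk1 had 23.5, 41.4 and 37.4 CPM in the cholinergic spots and 143, 249 and 617 CPM in the hypothalamic-rule spots (log2 fold change -3.22 ± 0.21, SE; edgeR adjusted p = 1.13e-19). The calcitonin receptor gene Calcr had no count in the cholinergic spots and 46.3, 24.6 and 23.6 CPM in the hypothalamic-rule spots, at least 15.1-fold lower with the floor at 3 counts over the group.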
